A study of Mus musculus with 9 samples.

Results

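The astroglial cells described here were 122 of the 30463 cells kept from a CD11b sort of mouse brain, a sort meant to collect microglia and other myeloid cells. They were chosen by their own counts. A kept barcode (500 to 20000 UMIs, the unique molecular identifiers that count single transcripts, at least 200 genes and at most 10% of UMIs from mitochondrial genes) was called astroglial when it held a UMI of at least 4 of the 8 genes Slc1a2, Aldoc, Clu, Mt3, Gja1, Aqp4, Slc1a3 and Ntsr2. It could hold a UMI of at most 1 of the microglial genes P2ry12, Tmem119, Siglech and Gpr34, of at most 1 of the vascular genes Cldn5, Flt1, Acta2 and Tagln, and of at most 1 of the ependymal genes Ccdc153, Tmem212 and Dynlrb2. The level of these 19 genes, and any difference between astroglial and other cells, is therefore a description. The 8 markers stayed in the fit across all genes described later, but no test is reported for any of them.

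The study used female C57BL/6J mice of 5 months. Ctrl mice were naive, with 1 mouse per library. D0 mice received a diet with 1200 mg/kg of the CSF1R inhibitor PLX5622 for 14 days, which depletes microglia, and D2 mice then returned to control diet for 2 days; each D0 and D2 library pooled 2 brains. Each group had 3 libraries, and no group carried a transgene. Brains without cerebellum were digested with enzymes, depleted of myelin with beads and sorted as live CD11b+ cells, so the few astroglial cells here are those that passed a gate on a protein of myeloid cells. The study left out the third D2 library (D2-3) from its own results and set aside, as contaminating, the cluster with astroglial markers; both are kept here, with values without D2-3 where it matters.

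Astrocytes are the glia that take up glutamate and GABA from synapses, buffer potassium, move water at blood vessels, feed neurons with lactate and lipids, and couple to each other through gap junctions. They are born from radial glia and keep many of the transcription factors of neural stem cells. They do not depend on CSF1R for survival, and they are among the brain's sources of signals to microglia, including colony-stimulating factor 1, interleukin 33 and transforming growth factor beta.

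Among the genes of the rule, whose detection the rule itself largely fixed, Slc1a2 (GLT-1, the main glutamate transporter; chromosome 2, 102658659 to 102790784, GRCm38) was detected in 99.2% of astroglial cells, against 1.29% of the 24539 cells of the microglia class, although the median cell held 4931 UMIs in the first and 7087 in the second. All 8 chosen markers were present in 84 of the 122 cells. As a check of the label on genes that the rule did not name, the bicarbonate cotransporter Slc4a4 had a UMI in 87.7% of astroglial and 0.118% of microglia cells. Levels are given as CPM, the UMIs of a gene per 1e+06 UMIs of the cells summed. The genes with the largest ratio to all other kept cells outside the ependymal class were led by Plpp3, a lipid phosphatase of astrocytes, with 3653 CPM against 7.52 CPM (genes of the rule left out, 10 CPM added to both sides). It was followed by Cspg5, Dclk1, Gpr37l1, Ptprz1, Htra1, Cldn10, Bcan, Gria2, Scg3, Cpe, Gpm6a, Ttyh1, Ntrk2, Slc4a4, Luzp2, F3 and Fjx1. The levels are 3′ UMI counts, in which each transcript counts once whatever its length.

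Astroglial cells were unevenly spread over the libraries. Ctrl-1 held 14, Ctrl-2 held 1 and Ctrl-3 held 4. D0-1 held 7, D0-2 held 6 and D0-3 held 55. D2-1 held 15, D2-2 held 9 and D2-3 held 11. D0-3 alone thus gave 55 of the 122 cells and 349258 of their 617575 UMIs, so that any value pooled over all cells leans on that library. The members were shallow in Ctrl-1 (median 996.5 UMIs) and Ctrl-2 (860.0 UMIs) and deeper in D0-3 (5826 UMIs) and D2-3 (5901 UMIs). No astroglial cell shared its barcode with a kept cell of another library, whereas 196 of all kept cells did.

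**Figure D1:**
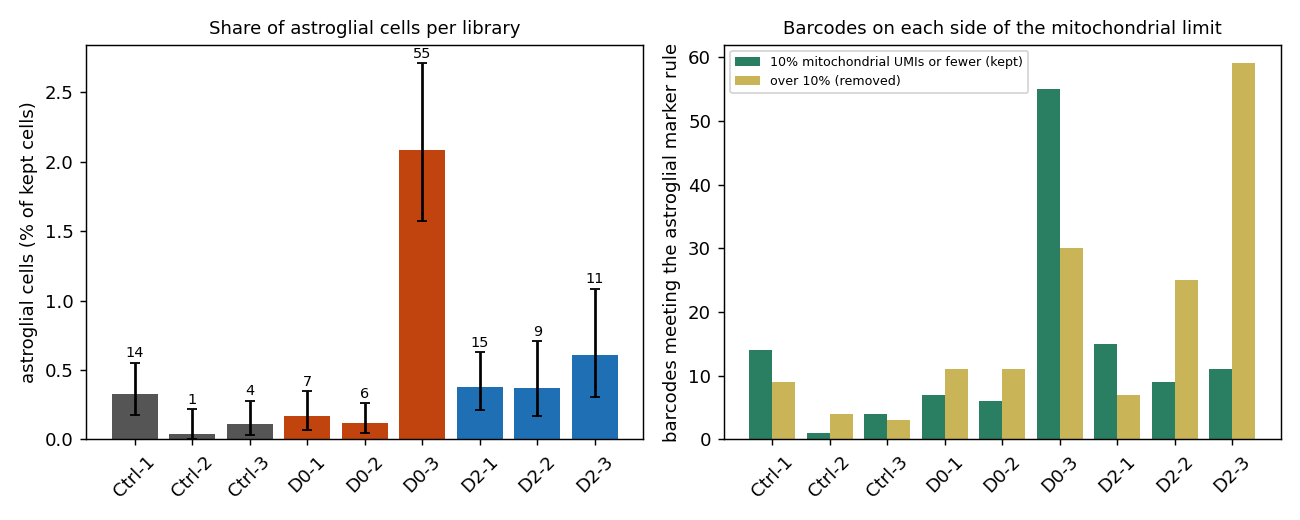
Left, astroglial cells as a percentage of kept cells in each of the 9 libraries, with exact 95% binomial intervals and the number of cells above each bar. Right, number of barcodes that met the marker rule with 10% mitochondrial UMIs or fewer (kept) and with over 10% (removed). D0-3 stands above the other libraries on the left, and D2-3 holds the most removed barcodes.

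The first comparison asked whether the share of astroglial cells in the sort differed with microglial depletion. The share of kept cells was 0.328% (95% exact binomial interval 0.180 to 0.551) in Ctrl-1, 0.0388% in Ctrl-2 and 0.108% in Ctrl-3. It was 0.169% in D0-1, 0.120% in D0-2 and 2.09% (1.58 to 2.71) in D0-3, and 0.381% in D2-1, 0.372% in D2-2 and 0.608% in D2-3. All 3 D2 libraries lay above all 3 Ctrl libraries, while D0-1 and D0-2 lay within the Ctrl range and D0-3 far above it. Intervals here cover counting error only.

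Neither share passed the test. The mean share was 0.158% ± 0.151 (SD, n = 3) in Ctrl, 0.792% ± 1.12 in D0 and 0.454% ± 0.134 in D2. When the numbers of cells in the 8 classes were fitted with edgeR's quasi-likelihood test and Benjamini-Hochberg adjustment, the log2 ratio to Ctrl was 2.22 ± 1.22 (SE) for D0 (adjusted p = 0.170) and 1.44 ± 1.21 for D2 (adjusted p = 0.288). The exact two-sided permutation test gave p = 0.500 for D0 and p = 0.100 for D2, the smallest value that 3 libraries against 3 allow. Without D0-3 the D0 ratio was -0.19. Of the cells outside the microglia class, astroglial cells made up 4.0% in Ctrl-1, 0.397% in Ctrl-2 and 1.90% in Ctrl-3, against 0.900%, 0.616% and 7.77% in D0-1, D0-2 and D0-3 and 1.83%, 1.20% and 1.02% in D2-1, D2-2 and D2-3. On that base edgeR put D0 at a log2 ratio to Ctrl of 0.52 and D2 at -0.66, each with an adjusted p of 1. A share among sorted cells cannot tell more astroglial cells from fewer cells of other kinds.

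The mitochondrial limit removed more astroglial barcodes than it kept. A further 159 barcodes met the marker rule and the UMI limits but had over 10% mitochondrial UMIs, with 9 in Ctrl-1, 4 in Ctrl-2, 3 in Ctrl-3, 11 in D0-1, 11 in D0-2, 30 in D0-3, 7 in D2-1, 25 in D2-2 and 59 in D2-3. With no mitochondrial limit, an alternative chosen after seeing the data, the edgeR log2 ratio to Ctrl was 2.06 for D0 (adjusted p = 0.150) and 2.55 for D2 (adjusted p = 0.0676).

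The count of markers set the edge of the group. The 7 cells with exactly 4 markers had a median of 928 UMIs, and 10 ion, water and junction genes outside the rule summed to 1928 CPM in them. A D2-1 cell (9498 UMIs) and a Ctrl-1 cell (6363 UMIs) held most of the UMIs pooled over these 7 cells. The 11 cells with 3 markers that met the other limits had a median of 6532 UMIs, and the same genes summed to 695 CPM. The cells with all 8 markers reached 10836 CPM. A further 56 kept cells had 4 or more markers but exceeded another limit, 32 of them the microglial, 29 the ependymal and 11 the vascular limit.

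The chosen markers were detected in every library with enough cells, at levels that differed over 2-fold between libraries for some. Levels are given for the 7 libraries with at least 5 astroglial cells, since Ctrl-2 and Ctrl-3 were too small. Slc1a2 stood at 5805 CPM in Ctrl-1, 5269, 4250 and 4733 CPM in D0-1, D0-2 and D0-3, and 5269, 6812 and 5309 CPM in D2-1, D2-2 and D2-3. The 3 D2 values lay at or above the highest D0 value. Aldoc (aldolase C, the glycolytic isozyme of astrocytes; chromosome 11, 78322968 to 78327781) stood at 3468 CPM in Ctrl-1, 3393, 4460 and 3565 CPM in D0, and 4436, 4463 and 3549 CPM in D2. Its groups overlapped. Gja1 (connexin 43, the main gap junction protein; chromosome 10, 56377330 to 56402513) ranged from 1059 CPM in D2-3 to 2408 CPM in D2-2, and Aqp4 (the water channel of endfeet) from 541 CPM in Ctrl-1 to 1116 CPM in D0-1.

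Transmitter uptake genes came next, with 8 of the 9 listed genes at 10 CPM or more and 8 over 2-fold higher than in the microglia class. In this contrast, which the rule itself used, 23.8% of the 10132 genes at 10 CPM or more in either class were over 2-fold higher and 15.7% over 2-fold lower, so these counts are a description. Glul (glutamine synthetase, which turns glutamate into glutamine) stood at 2375 CPM, 2164 CPM in Ctrl-1, 1786 to 2382 CPM in D0 and 1989 to 3201 CPM in D2. The GABA transporter Slc6a11 (GAT-3) stood at 500.3 CPM, against 0.0663 CPM in microglia. Slc7a10, a carrier of small neutral amino acids, reached 520 CPM and the metabotropic glutamate receptor Grm3 225 CPM, while Grm5 was near its floor with 4 UMIs in all.

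All 10 ion, water and junction genes were at 10 CPM or more and over 2-fold above microglia. Atp1b2, a beta subunit of the sodium-potassium pump, stood at 742 CPM. The bicarbonate cotransporter Slc4a4 stood at 1187 CPM and the second astrocyte connexin Gjb6 (connexin 30) at 452 CPM. The potassium channel subunits Kcnj10 (Kir4.1) and Kcnj16 were lower, at 136 and 56.7 CPM. Mlc1 and Hepacam, membrane partners in endfeet, reached 403 and 360 CPM.

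Transcription factors of the astroglial and stem cell lineage were all detected, 12 of 12 at 10 CPM or more, with a median of 389 CPM. Id4 (881 CPM), Zbtb20 (868 CPM), the Notch target Hes5 (826 CPM), Sox2 (614 CPM) and Sox9 (492 CPM) were the highest. Mitosis genes were nearly absent: the 6 listed genes gave 19.4 CPM together, against 347 CPM in the microglia class, and Ccnb1 had no UMI.

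Lipid and secreted genes carried the largest levels. Apoe, the lipid carrier of the brain, stood at 23194 CPM against 1661 CPM in microglia, from 19020 CPM in D0-1 to 27233 CPM in D0-2 with Ctrl-1 at 26564 CPM. Cst3, a secreted protease inhibitor that microglia make as well, stood at 27041 CPM against 46560 CPM in microglia. Sparcl1 (5075 CPM) and Ptn (4869 CPM), which act on synapses and neurites, followed, whereas the related matrix protein Sparc was lower in astroglial cells than in microglia, with 379 CPM against 3275 CPM. Of the 12 lipid and cholesterol genes 11 were over 2-fold higher than in microglia, and of the 16 secreted and matrix genes 14 were over 2-fold higher and Sparc alone was over 2-fold lower. After the noncoding Malat1, the highest levels outside mitochondrial and ribosomal genes included those of Cst3, Apoe, Gm42418, Slc1a2, Sparcl1, Ptn, Mt1, Ckb, Clu, Aldoc, Mt3, Plpp3, Slc1a3, Fth1, Ttr, Cd81, Xist and Glul. Gm42418, which overlaps ribosomal RNA, was uneven, with 33722 CPM in Ctrl-1 and between 1402 and 10144 CPM in the other 6 libraries. Of the 1543 Ttr UMIs, 1533 came from a single cell.

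**Figure D2:**
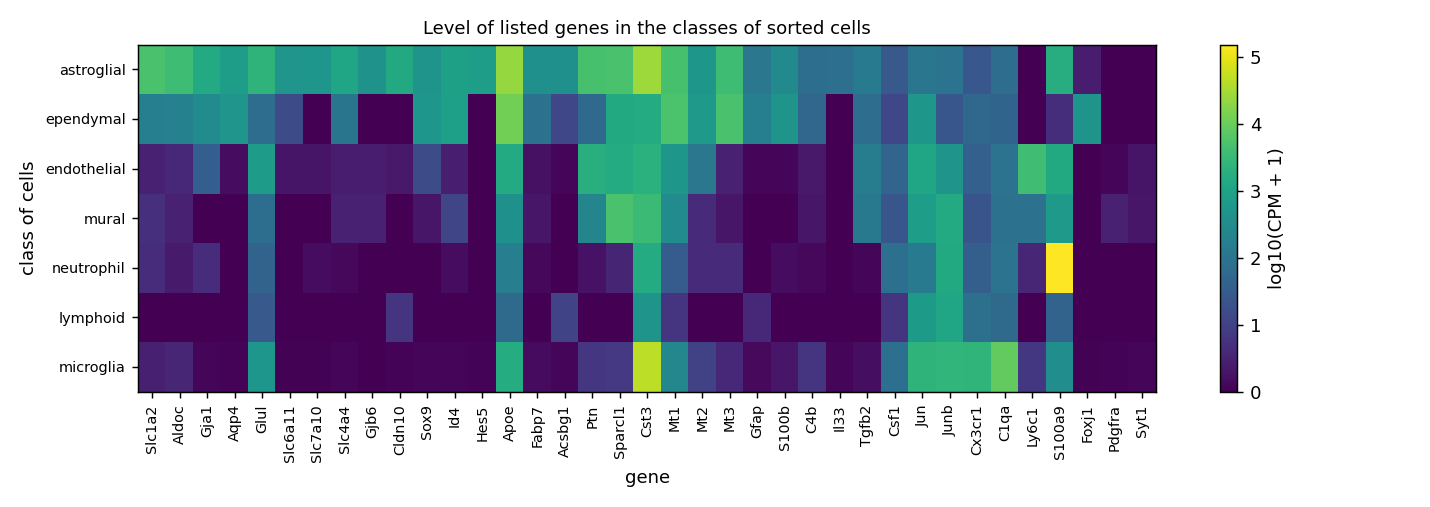
Level of selected genes (columns) in 7 classes of sorted cells (rows), as log10(CPM + 1) of UMIs summed over all cells of a class. The astroglial row is high from Slc1a2 to Mt3; the ependymal row shares Mt1 and Mt3 but lacks Hes5, Gjb6 and Cldn10, and the astroglial S100a9 value comes almost wholly from 1 cell.

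The 25 cells of the ependymal class, the ciliated lining of the ventricles, share some of these genes. They carried Mt3 (5050 CPM), Mt1 (5227 CPM), Sox9 (531 CPM) and Id4 (835 CPM), beside 3739, 4788, 492 and 881 CPM in astroglial cells. The 12 lipid and cholesterol genes summed to 28751 CPM in the ependymal class and 28651 CPM in astroglial cells, so their summed level did not set the classes apart. Ependymal cells held no UMI of Hes5, Gjb6, Cldn10, Grm3 or Slc7a10 and only 169 CPM of Slc1a2. Their own genes were nearly absent from astroglial cells: Foxj1, the regulator of motile cilia, stood at 485 CPM in the ependymal class and at 1 UMI in all astroglial cells.

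Metabolic and antioxidant genes were all at 10 CPM or more and over 2-fold above microglia, 14 of 14, with the peroxiredoxin Prdx6 highest at 2053 CPM. Of the 12 receptors and signalling genes 11 reached 10 CPM and 9 were over 2-fold higher. Of the 7 cytoskeletal and calcium-binding genes 6 reached 10 CPM, 5 were over 2-fold higher and 1 over 2-fold lower, and S100a1 led them with 515 CPM.

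The metallothioneins, small cysteine-rich proteins that bind zinc and copper, were among the most abundant transcripts. Mt1 stood at 3911 CPM in Ctrl-1, 3036, 4985 and 4590 CPM in D0 and 4572, 5021 and 5566 CPM in D2. Mt2 was lower in every one of these libraries, at 295 CPM in Ctrl-1, 491, 892 and 533 CPM in D0 and 469, 646 and 544 CPM in D2. Mt3, the brain form and one of the chosen markers, ranged from 2286 to 4786 CPM. The groups overlapped for all 3 genes. The genes lie side by side on the plus strand of chromosome 8, and their promoters are shown to set the metal response elements beside these levels. Each run covers 250 bases before to 50 after the gene start (RefSeq, GRCm38.p6, plus strand), with the core of the metal response element, TGCACNC or TGCGCNC on either strand, in capitals.
Mt3 (chr8:94152357-94152656): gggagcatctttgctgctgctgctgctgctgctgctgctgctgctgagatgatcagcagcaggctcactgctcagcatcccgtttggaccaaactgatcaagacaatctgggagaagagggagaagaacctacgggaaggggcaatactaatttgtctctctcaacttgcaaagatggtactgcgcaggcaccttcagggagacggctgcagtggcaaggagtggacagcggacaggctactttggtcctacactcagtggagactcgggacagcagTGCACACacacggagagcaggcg
Mt2 (chr8:94172368-94172667): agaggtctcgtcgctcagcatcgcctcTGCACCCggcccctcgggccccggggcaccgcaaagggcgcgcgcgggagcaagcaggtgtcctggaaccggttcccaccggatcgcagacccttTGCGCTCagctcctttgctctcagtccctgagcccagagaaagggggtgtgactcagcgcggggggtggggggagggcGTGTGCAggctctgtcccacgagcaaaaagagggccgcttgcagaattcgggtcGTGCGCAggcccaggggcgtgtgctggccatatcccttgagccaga
Mt1 (chr8:94178839-94179138): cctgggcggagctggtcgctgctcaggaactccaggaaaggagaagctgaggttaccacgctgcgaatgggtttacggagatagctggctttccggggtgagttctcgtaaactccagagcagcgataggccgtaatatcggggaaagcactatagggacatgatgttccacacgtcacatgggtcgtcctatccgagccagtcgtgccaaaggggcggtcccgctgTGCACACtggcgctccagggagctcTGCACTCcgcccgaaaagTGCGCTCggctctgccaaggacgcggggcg

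The Mt1 window held 3 such cores, the Mt2 window 4 and the Mt3 window 1. At least 1 core was found in 25.7% of all 32851 promoter windows of this length and 4 or more in 0.517%. These letters mark matches and not measured binding.

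Genes of reactive astrocytes were mostly low. Gfap, the intermediate filament that rises in reactive astrocytes, stood at 246 CPM in Ctrl-1, 89.3, 0 and 68.7 CPM in D0-1, D0-2 and D0-3, and 106, 675 and 28.6 CPM in D2-1, D2-2 and D2-3. The D2 libraries alone spanned the whole range of Ctrl-1 and D0-1. A single D2-2 cell held 19 of the 71 Gfap UMIs, and 96 of the 122 cells held none. Of the 38 listed reactive genes, 15 were at 10 CPM or more and 9 had no UMI, among them Steap4, Timp1, Serping1 and Emp1, while 5 were over 2-fold higher and 10 over 2-fold lower than in the microglia class. Serpina3n had 2 UMIs, Lcn2 16 and C3 3, whereas the complement gene C4b had 46 (74.5 CPM against 4.89 CPM in microglia). S100b, a calcium-binding protein of astrocytes that is not in this list, stood at 308 CPM.

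The list summed to 418 CPM in Ctrl-1, 1652, 840 and 690.03 CPM in D0 and 499.6, 1233 and 3348 CPM in D2. In D0-1, a single gene of the list, H2-D1, gave 27 of its 37 UMIs. D2-3 stood apart, and 50 of the 51 UMIs of the chemokine Cxcl10 were in that library. Leaving out the 4 cells that carried 50 or more UMIs of another class took the sum over all members from 1027 to 588 CPM.

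Signals from astrocytes to microglia were also of interest, because the study blocked CSF1R. Il34, a CSF1R ligand that neurons make, had no UMI in the 617575 UMIs of the astroglial cells, which allows up to 4.86 CPM (3 UMIs, counting error only). Csf1, the other ligand, had 17 UMIs, 27.5 CPM (95% exact Poisson interval 16.04 to 44.07), in 9.84% of astroglial cells, below the 79.1 CPM of the microglia class, in which 18.1% of cells held a UMI. By condition it stood at 35.2 CPM in Ctrl, 28.2 CPM in D0 and 23.5 CPM in D2, on 2, 11 and 4 UMIs. These values cannot be told apart at this depth.

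Of the 16 signals to microglia listed, 8 reached 10 CPM, 3 were over 2-fold higher and 4 over 2-fold lower than in the microglia class, and 3 had no UMI. Il33, an alarmin stored in nuclei, stood at 76.1 CPM against 0.163 CPM, and Tgfb2 at 134 CPM against 0.545 CPM, while Tgfb1 was low at 21.1 CPM against 345 CPM. Tgfb2 stood at 73.8 CPM in Ctrl-1, 179, 157 and 74.4 CPM in D0 and 530, 176 and 42.9 CPM in D2. D2-1 lay far above the rest, D2-2 within the D0 range and D2-3 below it. A single D2-1 cell with 4 of the chosen markers held 29 of the 35 Tgfb2 UMIs of that library, and among cells with 5 or more markers Tgfb2 stood at 86.98 CPM. Mfge8, a bridge between dying cells and phagocytes, was the highest of this list with 2257 CPM, and Cd47, the receptor-ligand that restrains phagocytosis, stood at 343 CPM. The chemokine Cxcl12 and the cytokine Cntf had no UMI.

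Immediate-early and stress genes were low in astroglial cells beside the microglia that went through the same digestion. All 15 listed genes were over 2-fold lower than in the microglia class, in a contrast that the rule used. Jun stood at 107 CPM against 2380 CPM, Junb at 95.5 against 2608 CPM, Zfp36 at 64.8 against 1346 CPM and the heat shock gene Hspa1a at 12.95 against 846 CPM. The summed list was lower in astroglial cells in each of the 9 libraries, from 264 CPM against 10608 CPM in D2-2 to 3191 CPM against 3410 CPM in D2-3. In D2-3 the 2 cells with many UMIs of another class held most of it: without them its astroglial sum was 489 CPM.

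**Figure D3:**
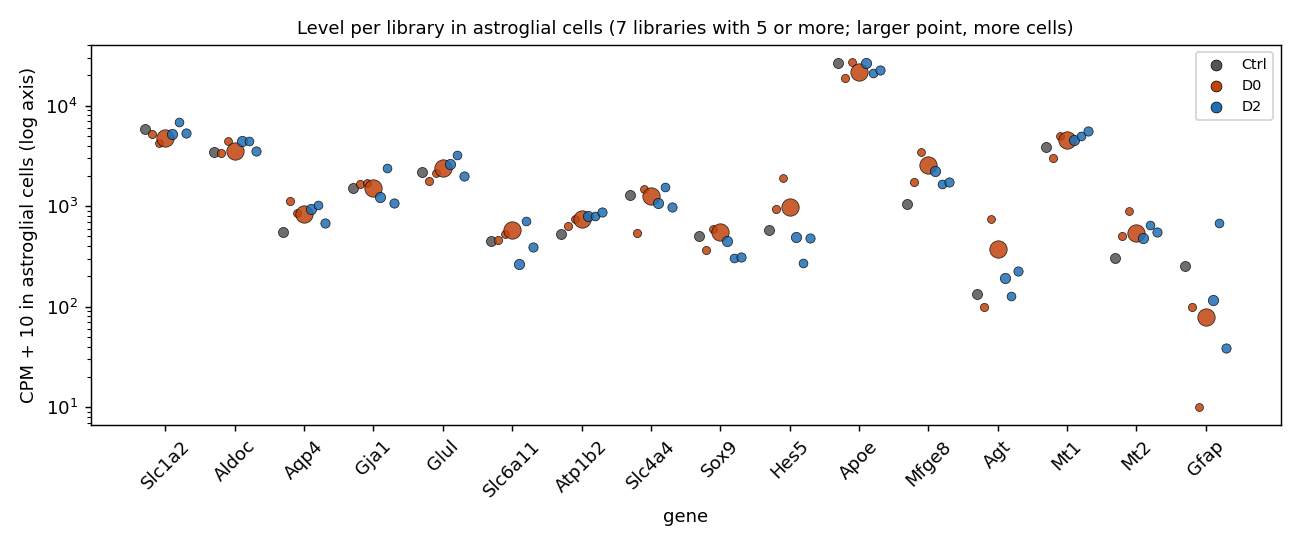
Level of selected genes in the astroglial cells of each of the 7 libraries with 5 or more such cells, as CPM + 10 on a log axis. Point size grows with the number of cells and colour gives the group. Slc1a2, Aldoc, Glul and Apoe stay within a narrow band, the 3 D2 points of Hes5 lie below the 3 D0 points, and Gfap and Agt are spread widely within groups.

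Genes could not be tested against Ctrl, since 1 Ctrl library alone had 5 or more astroglial cells. Values for the 19 Ctrl cells, with 56871 UMIs, are therefore given only beside the others. D2 was compared with D0 over 6 libraries in a fit added after the cells per library were known, which asked whether astroglial transcripts differed 2 days after the inhibitor was withdrawn.

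Of 730 genes with enough counts, edgeR's quasi-likelihood test called none between D2 and D0 at an adjusted p under 0.05 (0% called), and 26 had an unadjusted p under 0.05. DESeq2 also called none and had 6. The 3 D0 and 3 D2 libraries did not overlap for 57 of the 730 genes (7.81%). Among the listed groups, 13 of 16 secreted and matrix genes, 11 of 14 metabolic genes, 10 of 12 transcription factors, 8 of 10 ion, water and junction genes, 8 of 12 lipid genes and 7 of 9 transmitter genes had enough counts. None of these was called in either direction. The median log2 ratio of D2 to D0 was -0.27 for the transcription factors, -0.31 for the transmitter genes and 0.03 for the ion, water and junction genes, beside 0.04 over all 730 genes.

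Hes5 had the smallest unadjusted p. It stood at 938, 1889 and 973 CPM in D0-1, D0-2 and D0-3 and at 484, 264 and 472 CPM in D2-1, D2-2 and D2-3, with Ctrl-1 at 566 CPM. Every D2 library lay below every D0 library, and Ctrl-1 lay between the groups. The log2 ratio was -1.56 ± 0.39 (SE), with an adjusted p of 0.999 over all genes in edgeR. Without D2-3, the library the study left out, edgeR called 4 of 527 genes, all lower in D2 (0.759%). These were Hes5 (log2 ratio -1.63, adjusted p = 0.0157), Nnat, Gm3764 and Tmsb4x. With D2-3 in, none of them was called in the fit over all members, though Hes5 was called among cells with 2% Malat1 or more (adjusted p = 0.0492) and Tmsb4x when the version of Cell Ranger was fitted as well (adjusted p = 0.00554). Tmsb4x had 136, 12 and 496 UMIs in D0-1, D0-2 and D0-3, among 22397, 19058 and 349258 UMIs of all genes. In D2-1, D2-2 and the omitted D2-3 it had 38, 13 and 408, among 66049, 34057 and 69885.

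Other listed genes whose groups did not overlap included Atp1b2, Ndrg2, Pygb, Gpr37l1, Tril and Itih3. Glul differed by 0.27 ± 0.26 and Mt1 by 0.25 ± 0.24 on the log2 scale, and neither passed the test.

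Astroglial cells were not all alike, and they differed in Malat1, a long noncoding RNA held in the nucleus. It was the most abundant transcript, with a median of 12.4% of a cell's UMIs (quartiles 4.26% and 16.8%), against 1.88% in the microglia class, 3.71% in endothelial cells and 2.99% in ependymal cells. It was below 1% in 23 astroglial cells, between 1% and 4% in 7 and at 4% or more in 92. A limit of 2%, set after these values were seen, put 27 cells on the low side.

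**Figure D4:**
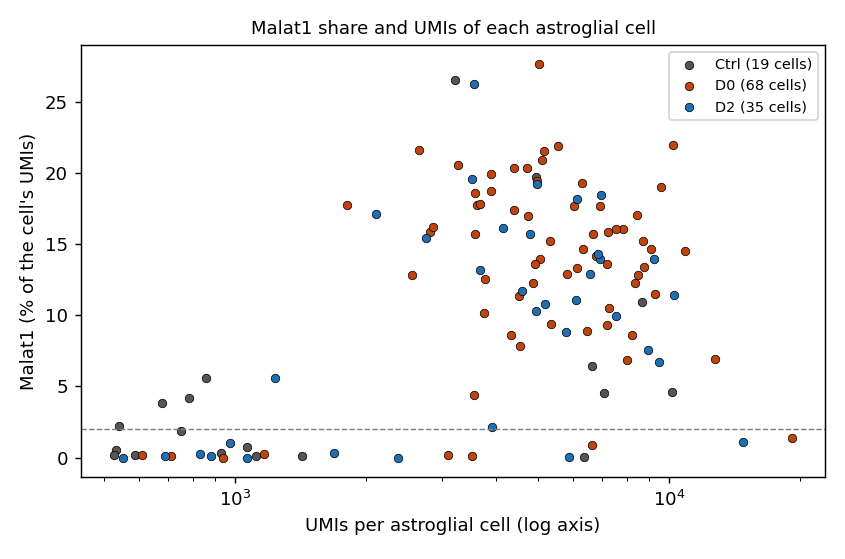
Malat1 as a percentage of each astroglial cell's UMIs (vertical axis) against the cell's UMIs (log axis), coloured by group, with the 2% limit dashed. Most cells under the limit lie at the left, and the Ctrl cells lie mostly at low UMIs.

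The 27 cells with little Malat1 had a median of 1065 UMIs and 676 genes, against 5178 UMIs and 2224 genes in the other 95. They came from 8 libraries, with 7 of 14 cells in Ctrl-1, 2 of 4 in Ctrl-3, 3 of 7 in D0-1, 2 of 6 in D0-2, 3 of 55 in D0-3, 3 of 15 in D2-1, 4 of 9 in D2-2 and 3 of 11 in D2-3. Only 3 of them held all 8 chosen markers. They include 2 of the cells with many UMIs of another class described below and the deepest cell of all (19177 UMIs), so that the other 24 held 38592 of the 78933 UMIs. Values are therefore given for those 24 cells, beside the 93 other cells without such carriers, as shares of UMIs other than Malat1. Ribosomal protein genes made up 6.17% in the 24 and 2.62% in the 93, and 11.1% in all 27. Slc1a2 stood at 5902 against 6152 CPM and Aldoc at 7878 against 4491 CPM, where all 27 cells gave 3496 and 3994 CPM. Slc1a2 and Aldoc belong to the rule, so their levels in cells this shallow are no check of the label. Outside the rule, the 10 ion, water and junction genes summed to 6786 against 12452 CPM. Genes chosen after their values were seen were further apart: Dclk1 stood at 286 against 2484 CPM, and Gria2 and the phagocytic receptor Mertk had 1 UMI each against 1858 and 379 CPM. Microglial markers summed to 2469.8 against 644 CPM, and to 3700.2 CPM in all 27 cells, where a single D2-3 cell held 186 of their 290 UMIs. Among the 24, a single D0-1 cell held 44 of their 95 microglial UMIs. The part of depth and of microglial RNA in this pattern was not tested. The groups hold unequal shares of such cells: 9 of 19 in Ctrl, 8 of 68 in D0 and 10 of 35 in D2.

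Region-typical genes divided the cells along another line. Agt (angiotensinogen, abundant in astrocytes of the diencephalon and brainstem) was at 5 or more UMIs in 14 cells, at 1 to 4 in 30 and at 0 in 78. The limit and this split were chosen after the values were seen, so what follows is a description. In the 14 cells Agt stood at 2118 CPM against 86.4 CPM in the other 108. Slc6a11 stood at 1601 against 378 CPM, Itih3 at 1423 against 88.2 CPM, Sparc at 1908 against 209 CPM and the glycine transporter Slc6a9 at 226 against 34.2 CPM. The homeobox gene Nkx6-2 had 37 UMIs in 8 of the 14 cells and 2 UMIs in the other 108, and Igsf1 had 18 UMIs in 8 of the 14 and none elsewhere.

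Genes of forebrain astrocytes went the other way. Mfge8 stood at 1213 CPM in the 14 cells and 2373 CPM in the rest, and the homeobox gene Lhx2 had a UMI in 1 of the 14, in 24 of the 30 with 1 to 4 Agt UMIs and in 45 of the 78 with none. D0-3 gave 10 of the 14 cells, and 5 libraries gave at least 1. The median depth was 3963.5 UMIs in the 14 and 5005.5 in the rest, and 13 of the 14 held all 8 chosen markers.

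**Figure D5:**
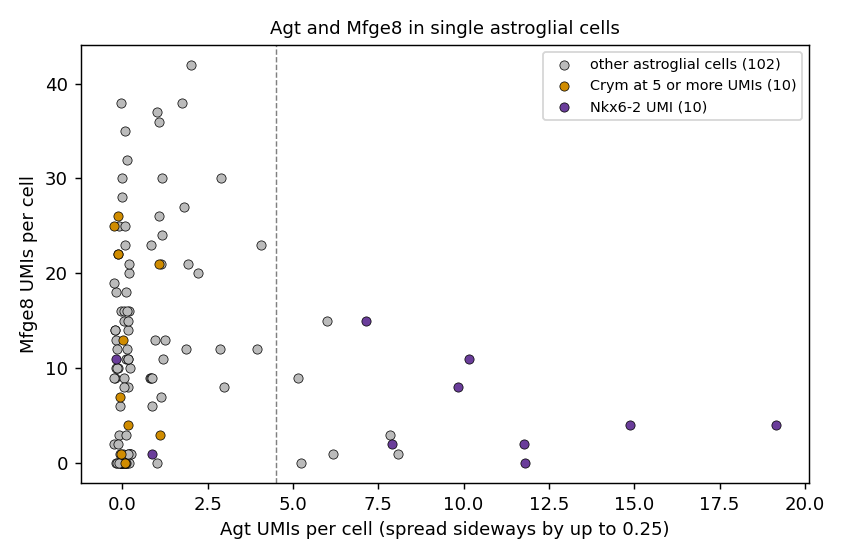
Agt UMIs (horizontal) and Mfge8 UMIs (vertical) of each of the 122 astroglial cells, with cells holding an Nkx6-2 UMI in purple and other cells with 5 or more Crym UMIs in orange. The dashed line marks 5 Agt UMIs; 8 of the 10 Nkx6-2 cells lie to its right, and the highest Mfge8 counts lie to its left.

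Crym (crystallin mu, a thyroid hormone-binding protein) was all but confined to a few cells. Its 320 UMIs fell in 13 of the 122 cells, 12 of which held 5 or more, with 73 in the highest. These 12 cells came from 6 libraries and from Ctrl (2), D0 (5) and D2 (5). Crym stood at 4029 CPM in them and at 1.86 CPM (1 UMI) in the other 110, with 0.280 CPM in the microglia class. Only 1 of the 12 had 5 or more Agt UMIs. They include 2 of the cells with many UMIs of another class described next, and these decide other differences: Tmsb4x stood at 5014 CPM in the 12 and 1365 CPM in the rest, but at 215 CPM against 1090 CPM without such cells. Slc1a3 stood at 2324 against 3230 CPM with them and at 3010.3 against 3318 CPM without, and Crym at 4929 against 1.93 CPM without.

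Markers of another class were carried by 4 cells at 50 or more UMIs, and no doublet caller was run. A D0-3 cell with 12766 UMIs held 1927 UMIs of the neutrophil genes S100a8, S100a9 and Retnlg beside all 8 astroglial markers, and 1017 of the 1064 S100a9 UMIs of all members were in it. A Ctrl-1 cell with 6363 UMIs held 1533 UMIs of Ttr, the main product of choroid plexus, no Slc1a2 and only 4 markers. A D2-3 cell with 14801 UMIs held 186 UMIs of 15 microglial markers, and another D2-3 cell held 74 neutrophil and 45 microglial UMIs. Without these 4 cells the neutrophil genes summed to 58.6 CPM in place of 3295 CPM, the choroid plexus genes to 32.8 in place of 2672 CPM and the microglial markers to 666 in place of 1083 CPM. S100a9 stood at 36.2 CPM in place of 1723 CPM.

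Most marker lists of other cells were low. All 5 lymphoid, all 4 border macrophage and all 4 hemoglobin genes had no UMI. The 9 neuronal genes gave 9.72 CPM together, with 6 of 9 at 0, and the 6 oligodendrocyte precursor genes summed to 37.2 CPM, of which Vcan gave 34.0 CPM, with Pdgfra, Cspg4, Gpr17 and Neu4 at 0. Oligodendrocyte genes summed to 175 CPM, most of it Cnp (110.1 CPM), and Mobp, Mog and Ermn were at 0. Endothelial genes summed to 6.48 CPM, fibroblast genes to 19.4 CPM, mural genes to 92.3 CPM, of which Pdgfrb gave 85.8 CPM, and ependymal genes outside the rule to 74.5 CPM, of which Rarres2 gave 64.8 CPM. Itgam, which encodes CD11b, the protein sorted for, had 10 UMIs in all (16.2 CPM, in 4.92% of the cells), against 436 CPM in the microglia class, 84.9% of whose cells held a UMI. The most abundant microglial marker was Tyrobp with 248 CPM, and the list was at 535 to 3434 CPM per library against 57678 CPM in the microglia class. The upper end was D2-3, which stood at 176 CPM without its 2 carriers, and the range without such cells was 176 to 2589.6 CPM.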

How the data were processed

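The deposited files hold UMI counts per gene and barcode that the authors made from 10x Genomics 3′ v3 libraries with Cell Ranger on mm10 (3.1.0 per the processing notes, 3.0.2 or 3.1.0 per the file headers), as filtered matrices of 31053 genes, 1 per library. From the 36391 barcodes, 30463 passed the limits given above. Counts were summed over the astroglial cells of each library; CPM is per 1e+06 UMIs of those cells. Intervals are exact binomial or Poisson (95%), and floors use 3 UMIs. Shares were tested with edgeR 4.0.16 on cells per class, with all kept cells as library size, and genes with edgeR on TMM-scaled sums after filterByExpr, Benjamini-Hochberg adjusted over all genes tested. DESeq2 1.42.0 was an alternative. Fits were tested on simulated data, and no outcome of that step is reported here. Gene positions came from GENCODE vM21 and promoters from RefSeq. Named genes are all those of the lists, the 20 highest and the 20 with the largest ratio, and up to 10 called genes per direction; a few of them are not reported here. The members, gene lists and tests were chosen with earlier results of these data known. No doublet caller was run. Labels number replicates 1 to 3 in each group, and nothing says that equal numbers share a day or litter. P-values measure the spread between these libraries.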

Additional observations from a re-analysis of the deposited data

Results flagged for a closer look

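Barcodes removed by the mitochondrial limit held an astroglial signal that was above its pooled Ctrl level in each D0 and D2 library, though not above each Ctrl library. The 159 barcodes that met the marker rule with over 10% mitochondrial UMIs made up 0.133% of all Ctrl barcodes, 0.371% of D0 and 0.880% of D2 barcodes, with 1.88% in D2-3. Left out after seeing the data, D2-3 and D0-3 decided much of this: D2 without D2-3 stood at 0.445% and D0 without D0-3 at 0.211%, while D2-1 (0.162%) and D0-2 (0.192%) lay below Ctrl-1 (0.193%). Their median was 1114 UMIs, 541 genes and 18.7% mitochondrial UMIs. Slc1a2 stood at 12035 CPM in them, against 5089 CPM in the 122 kept cells. It is a gene of the rule that chose these shallow barcodes, so its level is no check of the label. Outside the rule, the 10 ion, water and junction genes summed to 9946 CPM, against 9683 CPM in the 122 kept cells, while microglial markers summed to 727 CPM. Malat1 was under 2% of UMIs in 130 of the 159. The difference between groups was not tested beyond the fit without the limit.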

How the results depend on the processing

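The share of astroglial cells passed the threshold under none of the alternatives run. The log2 ratio of D0 to Ctrl ranged from -0.19 without D0-3 to 3.29 as each library was left out in turn, and that of D2 from 1.02 to 2.51. On cells outside the microglia class the D0 ratio was 0.52 and the D2 ratio -0.66. With cells thinned to 2000 UMIs they were 3.48 (edgeR adjusted p = 0.0573) and 2.31 (adjusted p = 0.176). With the replicate block, for numbers that share no stated source, the D0 ratio was 1.57 and the D2 ratio 1.54. Same-numbered D0 and D2 libraries correlated at -0.12, 0.25 and -0.16 after removal of group means. With 3 libraries per group and few cells in most, these values cannot decide whether the numbers pair them. The replicate block fit of genes called none in either direction. Genes higher in D2 than in D0 numbered 0 in all fits but that without a filter on low counts (9). Genes lower in D2 numbered 3 without that filter, 4 without D2-3, 1 in cells with 2% Malat1 or more and 3 when the version of Cell Ranger was fitted as well, and 0 elsewhere; over the fits without 1 replicate they ran from 0 to 4, and those higher were 0. Outside D0-3 and D2-3, no D0 or D2 library held over 8 UMIs of any of the 12 genes called without the filter. Hes5 was lower in D2 under all 16 distinct alternatives, and was called without D2-3 (edgeR adjusted p = 0.0157) and in cells with 2% Malat1 or more (adjusted p = 0.0492); over the others its adjusted p ran from 0.0508 to 1.00. The cause of these differences was not tested. The D2 against D0 fit, the fit without a mitochondrial limit, the omission of D0-3 and the limits on Malat1, on other-class UMIs and on the deepest cell were chosen after seeing the data. Minimums of 10 and 20 cells and every gene test against Ctrl were not run for lack of libraries with enough cells. With 6 to 15 cells in 5 of the 6 libraries compared, depth limits the D2 to D0 fit to genes of high level.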

Other observations

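Most UMIs of Ifit3, a gene induced by interferon, were held by a few astroglial cells, and the genes named beside it were picked from the same split. In all, 5 cells, 1 from Ctrl-1, 2 from D0-3, 1 from D2-2 and 1 from D2-3, held 2 or more UMIs of Ifit3, a limit set after the values were seen, and all 5 held all 8 chosen markers. A D0-3 cell with 19 Agt UMIs held 26 of the 47 Ifit3 UMIs. Of the 5 cells 3 held exactly 2 Ifit3 UMIs, and Ifit1 had a UMI in 40% and Ifit3b and Bst2 in 60% of the 5, so the pooled levels rest on a few cells. In the 5 cells Ifit1 stood at 523 CPM, with no UMI in the other 117, Ifit3b at 581 against 13.7 CPM, Bst2, the tethering factor of enveloped viruses, at 581 against 15.4 CPM, and Usp18, the brake on interferon receptors, had 5 UMIs against 1. Ifitm2, another interferon-induced gene, had no UMI in the 5 cells and 84 in the others.

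Most UMIs of an immature-neuron gene were likewise in a single cell. A D0-3 cell with 19177 UMIs, 5 of the chosen markers and 1.37% Malat1 held 37 of the 54 UMIs of Sox11, a factor of immature neurons, and 7 UMIs of Egfr. Dlx1 and Dcx had no UMI in any astroglial cell.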
